A study of Rattus norvegicus with 28 samples.

Results

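Expression of 5 monoamine receptor genes was followed in the orbitofrontal cortex of rats trained to self-administer saline or methamphetamine (meth). They were 2 dopamine receptors, Drd1 (ENSRNOG00000023688) and Drd2 (ENSRNOG00000008428), and 3 serotonin receptors, Htr1a (ENSRNOG00000010254), Htr2a (ENSRNOG00000010063) and Htr2c (ENSRNOG00000030877). The genes were chosen by identifier and not by a cut on measured values, though earlier results of these data were known at the time. All 5 were among the 26405 gene identifiers of every file. All 5 also passed the filter on low counts that left 15413 genes to test. The files do not pair identifiers with names, so the symbols used here are those given with the choice of genes.

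The 16 libraries came from Sprague Dawley rats, and each held poly(A) RNA from tissue punches of 2 rats, so replicates were different pools of animals. They formed 4 groups: saline at withdrawal day 2, meth at day 2, saline at day 35 and meth at day 35 (n = 4 libraries each). Saline rats were trained in the same way with saline in place of the drug and served as the controls at each day; rats were taken straight from the home cage. The ages of the rats were not given in the sources used here, and the labels write the 2 time points as short and long. A punch holds neurons, glia and vessels together. In such bulk RNA, fewer cells of a type and less RNA per cell cannot be told apart. Markers of cortex or of neighbouring tissue could not be looked up by name, so the tissue label and the purity of the punches were not tested.

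Dopamine and serotonin receptors named here are G protein-coupled receptors. The D1 receptor, encoded by Drd1, couples to stimulatory G proteins and raises cyclic AMP, and the D2 receptor, encoded by Drd2, couples to inhibitory G proteins and lowers it. The serotonin 1A receptor (Htr1a) is also inhibitory, while the 2A and 2C receptors (Htr2a and Htr2c) act through Gq and phospholipase C. The 2A receptor is known for its abundance on cortical pyramidal neurons and is the target of classic psychedelics. The 2C receptor is found in neurons of many forebrain regions and in the choroid plexus. Meth releases dopamine, noradrenaline and serotonin from nerve endings, and these genes encode some of the receptors on which the released dopamine and serotonin act.

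Libraries held between 20.33 and 48.47 M reads assigned to genes (M stands for mega), and the day 2 saline libraries were the shallowest. The receptors were read deeply enough to be compared in every library: counts ran from 287 to 1096 for Drd1, 99 to 669 for Drd2, 161 to 366 for Htr1a, 1485 to 3383 for Htr2a and 1386 to 4027 for Htr2c. Levels are given below as CPM, counts scaled to a fixed library size after correction of the library totals. CPM does not correct for transcript length, so levels are compared between groups for 1 gene and not between genes.

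No receptor gene of the 5 differed by drug at either day, or between the days in either drug group, beyond the spread of the replicate pools. What set the genes apart from each other was that spread. Drd2 varied 5.00-fold and Drd1 2.55-fold between the highest and the lowest library, against 1.34-fold for Htr1a, 1.33-fold for Htr2a and 1.43-fold for Htr2c. Day 2 meth replicate 1 was the highest library for both Drd2 (24.3 CPM) and Drd1 (32.6 CPM). The next highest for both was day 35 saline replicate 11, at 16.6 and 26.8 CPM. Drd1 rose and fell together with Drd2 and with Htr2c across the libraries, also with group means subtracted.

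**Figure D1:**
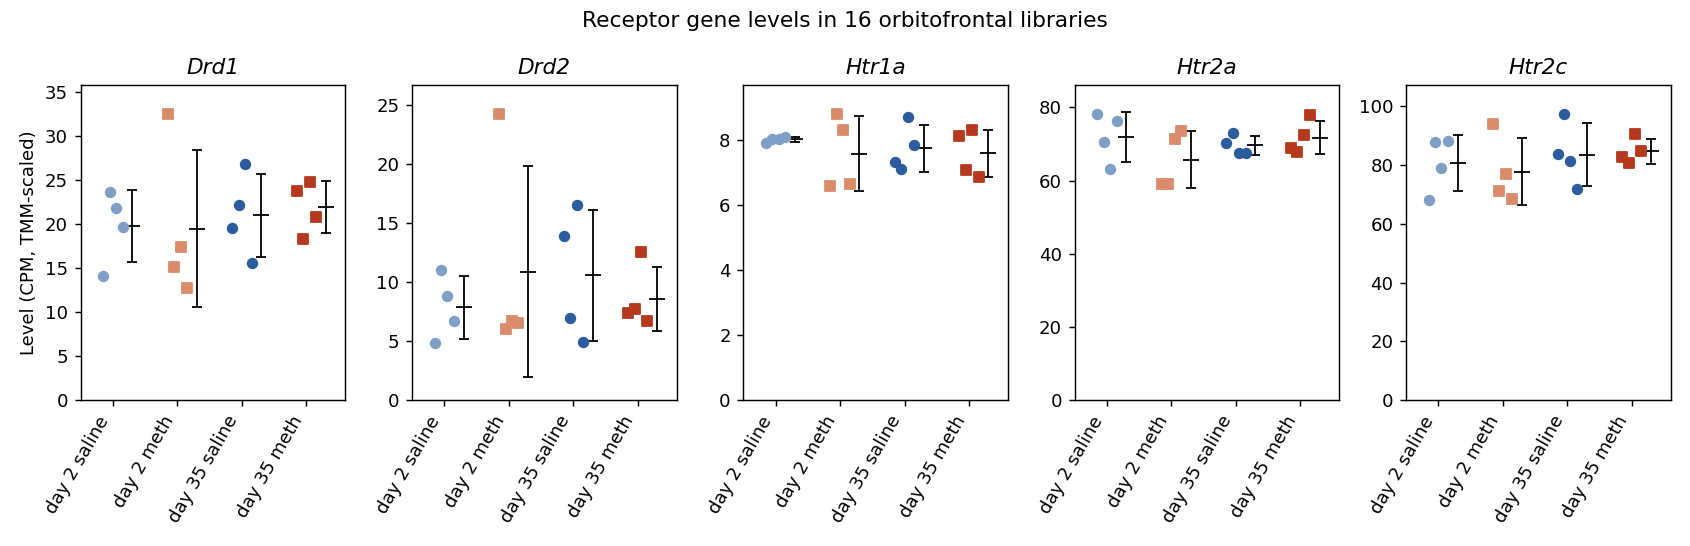
Level of each receptor gene in CPM (vertical axis, starting at 0) in the 16 libraries by group, with each point 1 library and each bar the group mean ± SD of 4 libraries. The groups overlap for every gene, and 1 day 2 meth library stands far above the others for Drd2 at 24.3 CPM.

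Drd1 stood at 14.1, 23.6, 21.8 and 19.6 CPM in day 2 saline replicates 13 to 16. In day 2 meth replicates 1 to 4 it stood at 32.6, 15.1, 17.4 and 12.8 CPM. The meth group thus held both the highest and the lowest Drd1 level of all 16 libraries. At day 35 the values were 19.6, 22.2, 26.8 and 15.5 CPM in saline replicates 9 to 12. They were 23.8, 18.4, 24.8 and 20.9 CPM in day 35 meth replicates 5 to 8. All 4 groups overlapped. From highest to lowest, the group means were 22.0 ± 2.93 CPM (SD, n = 4) in day 35 meth, 21.0 ± 4.72 in day 35 saline, 19.8 ± 4.13 in day 2 saline and 19.5 ± 8.94 in day 2 meth. No neighbours in this order differed by more than their SDs.

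Drd2 was the least even of the receptors. Its levels were 4.86, 11.1, 8.83 and 6.74 CPM in day 2 saline replicates 13 to 16. Day 2 meth replicate 1 held 24.3 CPM, while replicates 2 to 4 held 6.04, 6.67 and 6.57 CPM. The high mean of that group, 10.9 ± 8.94 CPM (SD, n = 4), therefore came from 1 library. Day 35 saline replicates 9 to 12 held 13.9, 7.00, 16.6 and 4.89 CPM (mean 10.6 ± 5.54). Day 35 meth replicates 5 to 8 held 7.35, 7.69, 12.5 and 6.70 CPM (mean 8.57 ± 2.68). Day 2 saline had the lowest mean, 7.87 ± 2.68 CPM, and every gap between neighbouring means was smaller than the SDs. Libraries above 10 CPM occurred in all 4 groups.

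Htr1a was the most even serotonin receptor gene in day 2 saline rats, with 7.90, 8.01, 8.03 and 8.10 CPM in replicates 13 to 16. The coefficient of variation there was 1.03%, less than the 7.42% that counting alone gives on average at these counts. Day 2 meth replicates 1 to 4 held 6.57, 8.80, 8.29 and 6.63 CPM, which reached both above and below the saline range. Day 35 saline replicates 9 to 12 held 7.31, 7.09, 8.71 and 7.84 CPM. Day 35 meth replicates 5 to 8 held 8.11, 7.08, 8.30 and 6.87 CPM. Group means lay between 7.57 ± 1.14 CPM (SD, n = 4) in day 2 meth and 8.01 ± 0.0826 in day 2 saline, with 7.74 ± 0.720 in day 35 saline and 7.59 ± 0.719 in day 35 meth between them.

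Htr2a stood at 78.3, 70.5, 63.1 and 76.3 CPM in day 2 saline replicates 13 to 16. In day 2 meth replicates 1 to 4 it stood at 59.1, 59.0, 71.4 and 73.5 CPM. Replicates 1 and 2 were thus the lowest of all 16 libraries, and replicates 3 and 4 lay inside the saline range. Day 35 saline replicates 9 to 12 held 70.2, 73.1, 67.7 and 67.5 CPM. Day 35 meth replicates 5 to 8 held 68.9, 67.9, 72.5 and 77.8 CPM. Day 2 meth had the lowest mean (65.8 ± 7.79 CPM, SD, n = 4), and the other means were 69.6 ± 2.62 in day 35 saline, 71.8 ± 4.48 in day 35 meth and 72.0 ± 6.85 in day 2 saline. The gap between the 2 lowest groups was larger than the SD of day 35 saline but within that of day 2 meth, and the other gaps were within both SDs.

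Htr2c held 68.0, 87.8, 78.9 and 88.2 CPM in day 2 saline replicates 13 to 16. Day 2 meth replicates 1 to 4 held 94.1, 71.3, 76.9 and 68.6 CPM, and replicate 1 was again the highest of its group. Day 35 saline replicates 9 to 12 held 83.6, 97.5, 81.5 and 71.7 CPM. Day 35 meth replicates 5 to 8 held 82.6, 80.7, 90.6 and 84.9 CPM, the narrowest range of the 4 groups. The group means followed the same order as those of Drd1: 84.7 ± 4.30 CPM (SD, n = 4) in day 35 meth, 83.6 ± 10.6 in day 35 saline, 80.7 ± 9.52 in day 2 saline and 77.7 ± 11.4 in day 2 meth. These gaps too were within the SDs.

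The first comparison asked whether meth rats differed from saline rats at withdrawal day 2. Of the 5 receptor genes 0 were called by edgeR's quasi-likelihood test at an adjusted p under 0.05, where 0.11% of the 15413 genes tested were called, and 0 had an unadjusted p under 0.05. Drd2 had the largest fitted log2 fold change, 0.41 (SE 0.54, 95% interval -0.76 to 1.58, edgeR adjusted p = 0.85). Htr2a came closest to the threshold of the 5, with a log2 fold change of -0.13 (SE 0.079, 95% interval -0.30 to 0.039, edgeR adjusted p = 0.612). Drd1 (-0.05, SE 0.28), Htr1a (-0.08, SE 0.10) and Htr2c (-0.06, SE 0.11) had smaller fitted values. The median over the 5 genes was -0.06, against 0.00326 over all genes tested.

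The day 2 comparison rests heavily on 1 library for the dopamine receptors and Htr2c. Without day 2 meth replicate 1, the Drd2 value turned from 0.41 to -0.31 on the log2 scale, and the Drd1 value went from -0.05 to -0.40; neither passed (edgeR adjusted p = 0.825 and 0.501). The Htr2c value went from -0.06 to -0.17 (edgeR adjusted p = 0.558). That library had the fewest gene counts of its group (24.97 M) and the largest share of reads with several alignments of all libraries (10.3%). The part of these features in the Drd2 level was not tested. The day 2 values of Htr1a and Htr2a also moved when single libraries were left out, without changing sign. They spanned -0.16 to -0.015 for Htr1a and -0.19 to -0.084 for Htr2a.

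At withdrawal day 35 the same comparison again called 0 of the 5 genes with edgeR, and 0% of all genes tested. Neither did any receptor gene reach an unadjusted p under 0.05. Drd2 had a log2 fold change of -0.30 (SE 0.50, 95% interval -1.39 to 0.78, edgeR adjusted p = 0.975), opposite in sign to day 2. Drd1 (0.07, SE 0.26), Htr2a (0.04, SE 0.077), Htr2c (0.02, SE 0.11) and Htr1a (-0.02, SE 0.095) all lay within 1 SE of 0. The 95% intervals for the serotonin receptors were -0.22 to 0.18 for Htr1a, -0.12 to 0.21 for Htr2a and -0.22 to 0.25 for Htr2c. Differences of 1.3-fold or more thus lay outside the intervals of these 3 genes, while those of Drd1 (0.71- to 1.55-fold) and Drd2 (0.38- to 1.72-fold) were wide.

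A direct test in the same model asked if meth acted differently on the receptors at the 2 days. Of the 5 genes 0 were called, where 0.136% of all genes tested were, and 0 had an unadjusted p under 0.05. Drd2 had the largest difference of effects, -0.71 on the log2 scale (SE 0.73, 95% interval -2.31 to 0.88, edgeR adjusted p = 0.82). It was 0.00424 without day 2 meth replicate 1. Htr2a had a difference of 0.17 (SE 0.11, 95% interval -0.062 to 0.41, edgeR adjusted p = 0.655). Averaged over both days, the meth effect was 0.05 for Drd2 and between -0.05 and 0.01 for the other 4 genes, again with 0 of 5 called against 0.013% of all genes and 0 at an unadjusted p under 0.05.

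**Figure D2:**
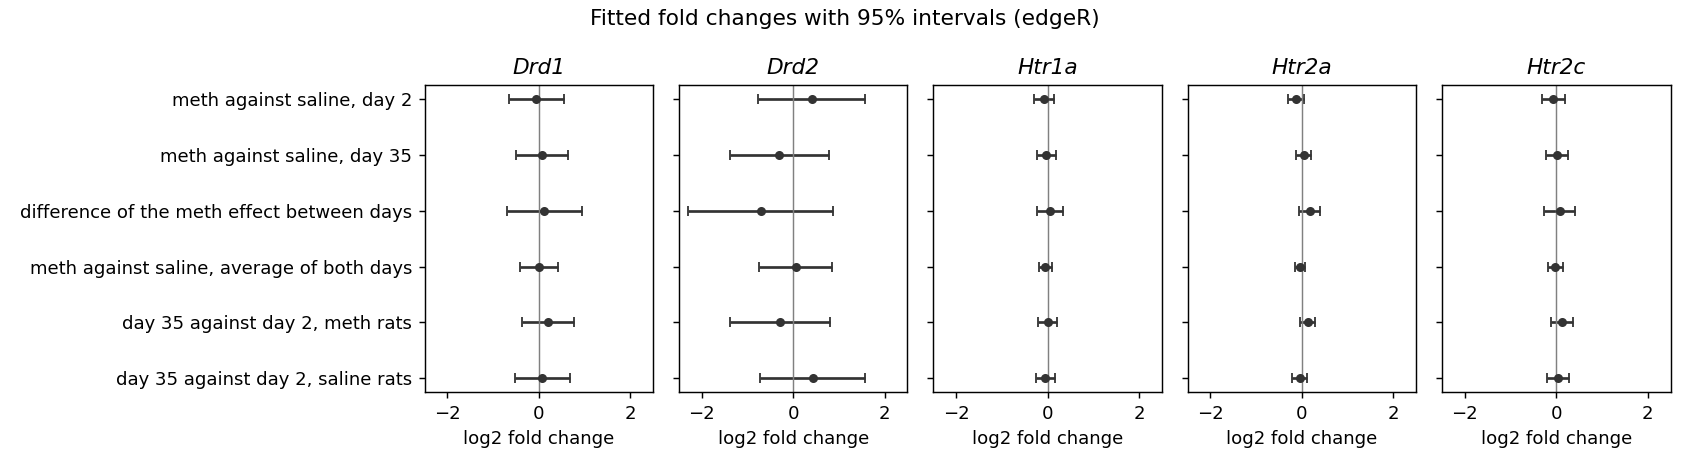
Fitted log2 fold change (horizontal axis) of each receptor gene in the 6 comparisons (rows), with 95% intervals from edgeR as bars. Every interval spans 0, and those of Drd2 are the widest, reaching from -2.31 to 0.88 for the change of the meth effect from day 2 to day 35.

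The remaining comparisons asked what changed over withdrawal within a drug group. In meth rats 0 of the 5 genes were called between day 35 and day 2, where 1.83% of all genes tested were, and 0 had an unadjusted p under 0.05. Htr2c (log2 fold change 0.13, SE 0.11, edgeR adjusted p = 0.621), Htr2a (0.12, SE 0.077, adjusted p = 0.467) and Drd1 (0.20, SE 0.27, adjusted p = 0.769) had positive values. Drd2 had -0.29 (SE 0.51, edgeR adjusted p = 0.833), and Htr1a was almost the same at both days (7.57 and 7.59 CPM, 95% interval of the log2 fold change -0.20 to 0.20). Without day 2 meth replicate 1 the Drd2 value was 0.43 and the Drd1 value was 0.55, neither called (edgeR adjusted p = 0.662 and 0.201). The Htr2c value was then 0.23, also not called (edgeR adjusted p = 0.264).

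In saline rats 0 of the 5 genes were called between the days with edgeR, where 0% of all genes tested were, and 0 had an unadjusted p under 0.05. Drd2 had a log2 fold change of 0.42 (SE 0.53, 95% interval -0.73 to 1.58, edgeR adjusted p = 0.882). The other 4 genes lay between -0.05 for Htr1a and 0.08 for Drd1. The meth and saline comparisons at a given day share libraries with these comparisons, so the 6 sets of values are not independent of each other.

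Across the 4 comparisons of single groups, the precision differed widely between the receptors. The 95% interval reached 0.16 to 0.17 to each side on the log2 scale for Htr2a, 0.20 to 0.21 for Htr1a and 0.24 for Htr2c. It reached 0.57 to 0.60 for Drd1 and 1.08 to 1.17 for Drd2. The intervals of the 4 comparisons together spanned 0.81- to 1.22-fold for Htr2a and 0.82- to 1.15-fold for Htr1a, and for Drd2 they spanned 0.38- to 2.99-fold.

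The spread of Drd1 and Drd2 was large for genes of their level. The biological coefficient of variation, the spread between replicates that remains after counting error, was 48.9% for Drd2 and 26.2% for Drd1. In edgeR the value of every gene is drawn toward the trend of genes of its level. That trend stood at 8.28% for Drd2 and 6.76% for Drd1. The values of 48.9% and 26.2% include day 2 meth replicate 1, the highest library for each gene. The median over all genes tested was 5.85%. Among the 500 tested genes nearest to each in level, 0 varied as much as Drd2 and 1 as much as Drd1. In the same way 16 of 500 varied as much as Htr2c (10.8%), 35 as much as Htr2a (7.55%) and 145 as much as Htr1a (8.32%). Counting error was small beside this spread for Drd2 (6.19% per library on average) and Drd1 (3.98%).

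**Figure D3:**
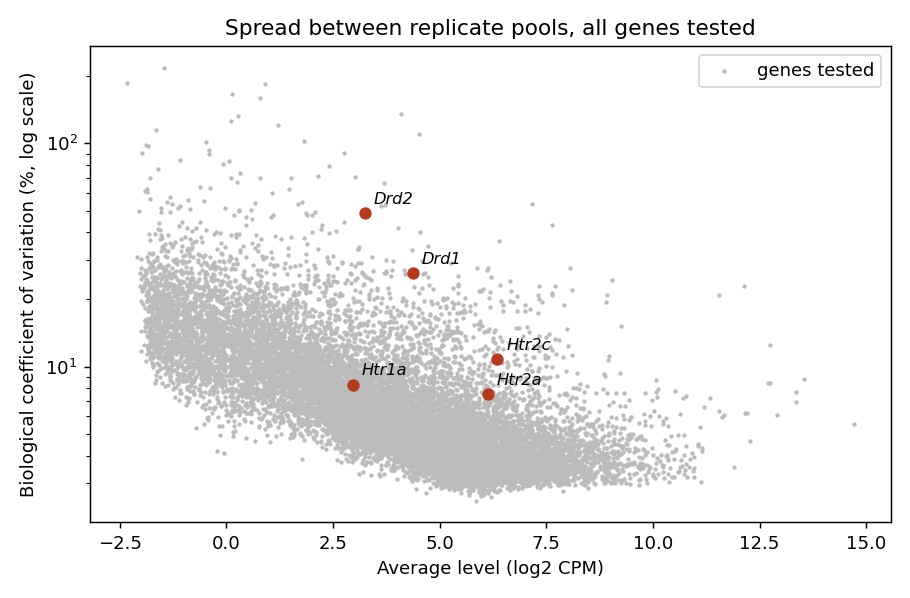
Biological coefficient of variation in percent (vertical axis, log scale) against average level in log2 CPM (horizontal axis) for all genes tested (grey) and the 5 receptor genes (red). Drd2 at 48.9% and Drd1 at 26.2% lie well above the bulk of genes of their level, and Htr1a lies within it.

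Little of this variation followed the groups. The 4 group means accounted for 3.79% of the variance of log2 CPM over the 16 libraries for Drd2, 7.63% for Htr1a, 7.75% for Drd1, 11.1% for Htr2c and 20.9% for Htr2a. The median over all genes tested was 23.3%, so all 5 receptors were below it. The means of 4 groups take up part of the variance of 16 libraries even where groups do not differ. These shares are therefore not a measure of drug and day alone.

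The receptors were then compared with each other over the 16 libraries, as log2 CPM, in 10 pairs with p-values adjusted over the 10. Drd1 and Drd2 rose and fell together, with Pearson's r = 0.81 (permutation p = 0.00014, adjusted p = 0.0007) and Spearman's rho = 0.83 (permutation p = 0.00015, adjusted p = 0.0015). In 4 of the 4 groups the library with the most Drd1 was also the library with the most Drd2. The library with the least of each was the same in 2 of the 4 groups. Leaving out the 2 libraries farthest from the median of Drd1 (day 2 meth replicates 1 and 4) gave r = 0.77 (permutation p = 0.00158). Subtracting the group means, which removes drug and day, gave r = 0.86 (permutation within groups, adjusted p = 0.0185).

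Drd1 and Htr2c moved together as closely, with r = 0.83 (permutation p = 0.00014, adjusted p = 0.0007) and rho = 0.78 (permutation p = 0.0006, adjusted p = 0.003). In 4 of the 4 groups the library lowest in Drd1 was also lowest in Htr2c. The library highest in each was the same in 2 of the 4 groups. Without the same 2 libraries r was 0.77 (permutation p = 0.00167), and with group means subtracted it was 0.82 (adjusted p = 0.0185 by permutation within groups), where rho was 0.71 (adjusted p = 0.0548). Drd2 and Htr2c had r = 0.59 (permutation p = 0.0163, adjusted p = 0.0545) and rho = 0.66 (permutation p = 0.00705, adjusted p = 0.0235). Their r was 0.58 without the 2 libraries farthest from the median of Drd2 (replicate 1 of day 2 meth and 11 of day 35 saline) (permutation p = 0.0309), and 0.64 with group means subtracted (permutation p = 0.0399, adjusted p = 0.133).

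Htr1a and Htr2a showed no such relation at this number of libraries. The 7 pairs that include Htr1a or Htr2a had r between -0.41 (Drd2 and Htr2a, permutation p = 0.112, adjusted p = 0.28; rho = -0.34, adjusted p = 0.48) and -0.00463 (Htr2a and Htr2c, permutation p = 0.986; rho = 0.085, adjusted p = 0.838). For Drd2 and Htr2a the r was -0.08 without the 2 libraries farthest from the median of Drd2. For Drd1 and Htr2a it went from -0.29 (permutation p = 0.274, rho = -0.24) to 0.06 without day 2 meth replicates 1 and 4. With only day 2 meth replicate 1 left out, r was -0.14 for Drd2 and Htr2a and -0.04 for Drd1 and Htr2a. Both negative values thus rested largely on that library. Without day 2 meth replicates 1 and 4, Htr1a and Htr2a went the other way, from -0.13 (permutation p = 0.638, rho = -0.21) to -0.45 (permutation p = 0.105). Each sequencing lane held 1 library of every group, too few for a value within a lane. With group and lane means both subtracted, r was 0.82 for Drd1 and Drd2, 0.87 for Drd1 and Htr2c and 0.68 for Drd2 and Htr2c.

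**Figure D4:**
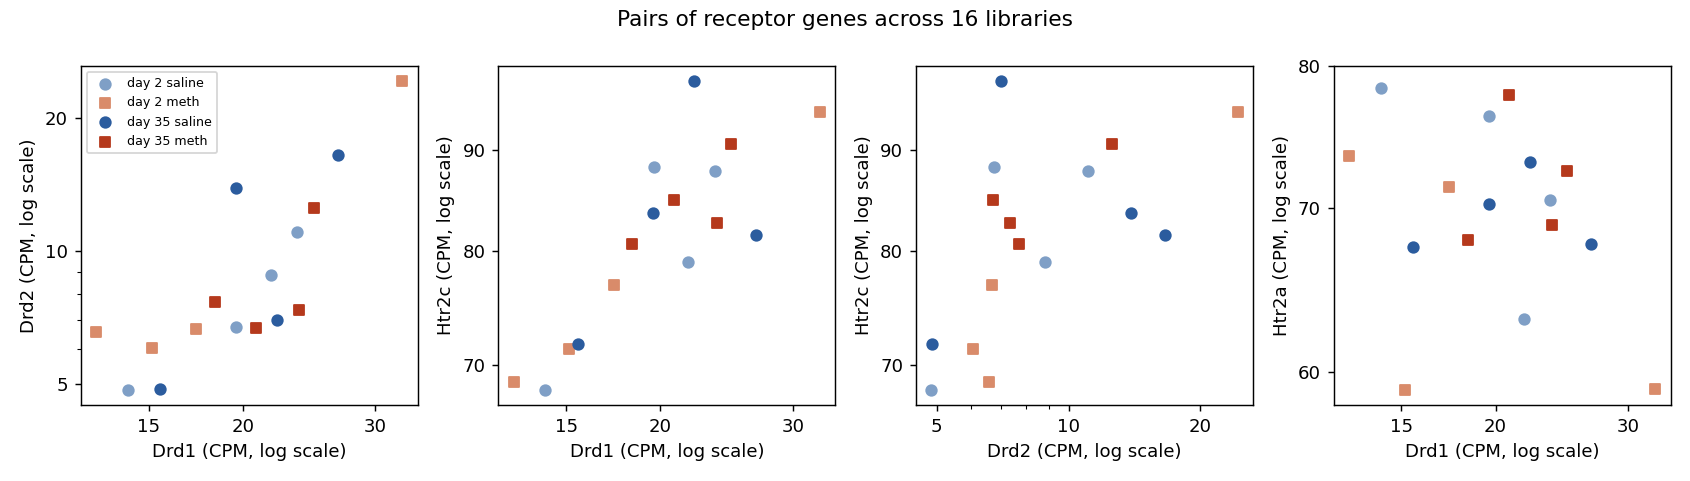
Levels of 4 pairs of receptor genes in CPM (both axes on a log scale), with each point 1 of the 16 libraries. Points are coloured by group, in blue for saline and orange or red for meth, darker at day 35. Circles are saline and squares are meth. Drd1 rises with Drd2 (r = 0.81) and with Htr2c (r = 0.83) over the 16 libraries, while Drd1 and Htr2a show no clear relation (r = -0.29).

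Depth and mapping were set against the levels in the same way, in 10 relations. Gene counts per library had r between -0.09 (Drd1) and 0.03 (Htr2a) with the 5 genes (permutation p = 0.726 and 0.923; rho -0.05 and -0.01). Without the 2 libraries farthest from the median of gene counts, r was -0.31 for Drd1, -0.32 for Drd2 and -0.28 for Htr2c. Without day 2 meth replicate 1 it was 0.26 for Drd2 and -0.25 for Htr1a. The share of reads with several alignments had r = 0.49 with Drd1 (permutation p = 0.0552, adjusted p = 0.373; rho = 0.32), 0.46 with Htr2c (permutation p = 0.0747, adjusted p = 0.373; rho = 0.39) and 0.32 with Drd2 (permutation p = 0.23, adjusted p = 0.767; rho = 0.17). Without the 2 libraries farthest from the median share these were 0.33, 0.24 and 0.02. None of the 10 relations passed the adjustment, and their part in the receptor levels was not tested.

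Among 13556 other genes with a mean of at least 1 CPM, 8 had r above 0.9 with Drd2, 5 with Drd1, 2 with Htr2c and 0 with Htr1a or Htr2a. The most similar pattern to that of Drd2 was ENSRNOG00000003800 (r = 0.96 over 16 libraries, 0.94 without day 2 meth replicate 1). It ranged from 6.52 to 36.8 CPM with a median of 10.0 CPM, and its highest library was also day 2 meth replicate 1. The most similar pattern to that of Drd1 was ENSRNOG00000010515 (r = 0.93 over 16 libraries), which ranged from 10.7 to 19.0 CPM. Neither identifier is paired with a name in the sources used here, and neither was called in any of the 6 comparisons (lowest edgeR adjusted p = 0.853 and 0.731). Ranked by r among 13560 genes, Htr2c was number 68 for Drd1 and Drd1 was number 13 for Htr2c, while Drd1 was number 28 for Drd2 and Drd2 was number 108 for Drd1.

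Because Drd1 moved together with Drd2 and with Htr2c, the bases before their starts were read from RefSeq, build GRCr8; the counts were made on rn4, so these positions are not those of the counting. The table held 3 of the 5 genes (Drd1, Drd2 and Htr2c). Its start for Drd1 lies 1116 bases inside the annotated gene, so that window is not shown. The 250 bases before the start are given for the other 2, 5′ to 3′ on the plus strand. Capitals mark a GC box (GGGCGG, the core bound by Sp-family factors) and a CCAAT box (CCAAT), each on either strand:
Drd2 (chr8:58605153-58605402): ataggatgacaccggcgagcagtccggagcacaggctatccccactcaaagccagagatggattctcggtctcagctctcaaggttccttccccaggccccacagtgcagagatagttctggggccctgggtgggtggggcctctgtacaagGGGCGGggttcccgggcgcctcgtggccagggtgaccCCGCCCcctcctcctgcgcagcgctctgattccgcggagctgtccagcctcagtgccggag
Htr2c (chrX:115452940-115453189): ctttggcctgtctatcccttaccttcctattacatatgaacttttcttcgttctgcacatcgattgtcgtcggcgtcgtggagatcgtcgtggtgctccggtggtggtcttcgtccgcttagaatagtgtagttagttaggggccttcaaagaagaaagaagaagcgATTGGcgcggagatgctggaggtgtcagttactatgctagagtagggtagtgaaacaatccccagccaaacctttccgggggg

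The Drd2 window held 2 GC boxes, 98 and 61 bases before the start, and was rich in G and C (66.0% against a median of 51.2% over 33469 promoters). The Htr2c window held 1 CCAAT box on the opposite strand, 83 bases before the start, and was 50.4% G and C. A C followed by a G occurred 14 times in the Drd2 window and 15 times in the Htr2c window, against a median of 5. Of all windows of this length, 30.5% held a GC box and 34.02% a CCAAT box. Both windows were also searched on either strand for the cyclic AMP response element (TGACGTCA), its shorter core (TGACG), the AP-1 site (TGANTCA) and the TATA box (TATAAA), and held 0 of each. These were found in 1.59%, 18.2%, 6.34% and 12.9% of all windows. The 2 windows shared none of the motifs searched. As the Drd1 window lies inside its gene, neither pair of Drd1 could be compared in this way. Any part of these sequences in the receptor levels was not tested.

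The balance of receptor types within a library does not depend on scaling, and was followed as the ratio of counts. Because transcript lengths differ, only its change between libraries can be read. Drd1 to Drd2 ranged from 1.34 in day 2 meth replicate 1 to 3.23, Htr2a to Htr1a from 6.71 to 11.3 and Htr2a to Htr2c from 0.628 to 1.15. On the log2 scale Drd1 to Drd2 averaged 1.37 ± 0.21 (SD, n = 4) in day 2 saline, 1.02 ± 0.44 in day 2 meth, 1.13 ± 0.62 in day 35 saline and 1.39 ± 0.33 in day 35 meth. In 12 two-sided exact permutation tests of these ratios, 4 against 4 libraries, the lowest p was 0.229, for Drd1 to Drd2 between meth and saline at day 2 (difference -0.35). The smallest p such a test allows is 0.0286, which could not pass the adjustment over 12 tests if reached only once.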

How the data were processed

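Poly(A) RNA was sequenced from 16 orbitofrontal libraries, each from 2 pooled rats. For the 12 central amygdala samples also listed, nothing was analysed here. The files hold raw counts per Ensembl gene as deposited, without normalization. TopHat, HTSeq, limma and the build rn4 are named in the submitters' processing notes. No version, annotation release or strand setting is given there, so antisense or overlapping transcripts cannot be told apart from these genes. The 5 HTSeq summary rows of each file (31.1 to 32.6% of reads) were left out.

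Counts were filtered with filterByExpr, scaled with TMM, and fitted as 4 group means over all 16 libraries with glmQLFit (robust) and glmQLFTest (edgeR 4.0.16, R 4.3.3). P-values were adjusted by Benjamini-Hochberg over all genes tested, with a threshold of 0.05. SEs are the fold change divided by the root of the test's F. Log2 CPM used a prior count of 2, and correlations used 100000 permutations. The fit was also run on simulated counts drawn from its own estimates of the spread. Such counts follow the model, so that run cannot test how the fit treats a gene with a single outlying library. The genes, lists and tests were chosen with earlier results of these data known. By rule the 5 receptors were named throughout, with the 2 identifiers most like any of them over the libraries. The 3 further gene lists and the cell type markers, fixed by symbol, were not run, since no table at hand pairs symbols with the files' identifiers.

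Libraries within a group were checked for duplicates and none was found (chi-square 5.19 to 17.0 times its degrees of freedom over 24 pairs). No label ties libraries to cohorts of rats. Libraries of different groups share lanes 1 to 4, which pairs them by lane in the labels. Deviations from group means correlated by 0.026 on average over 24 same-lane pairs (-0.27 to 0.24) and by -0.00876 over 72 other pairs. Each group has its own index, so index and group cannot be told apart. The alternatives tried were other size factors (median-ratio), other filters (none, or 1 CPM in 4 libraries), other tests (DESeq2 1.42.0 and limma-voom 3.58.1), a block for lane, a fit of the compared groups alone, and omission of single libraries.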

Additional observations from a re-analysis of the deposited data

Results flagged for a closer look

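In 2 of 32 sets of 4 values, 1 library stood apart from the other 3 of its group; chance gives about 1 in 20. Day 2 meth replicate 1 held 24.3 CPM of Drd2, the dopamine D2 receptor, against 6.04 to 6.67 CPM in the other 3 libraries. Day 35 meth replicate 7 held 12.5 CPM of Drd2 against 6.70 to 7.69 CPM in the others, only just past the limit for 4 values. Both libraries also had the most Drd1 and the most Htr2c of their groups.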

How the results depend on the processing

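No receptor gene was called in any of the 6 comparisons under any alternative run. Over 710 alternative fold changes the lowest adjusted p was 0.135 (limma-voom, DESeq2 and edgeR fits, 8 DESeq2 adjusted p not given). In the same limma-voom, DESeq2 and edgeR fits 13 had an unadjusted p under 0.05, the lowest being 0.00799, and 62 changed sign. The count of correlated pairs stayed at 2 or became 3. With lane as a replicate block no receptor was called either, and of the pairs only Drd2 and Htr2c changed its call (r = 0.68, by permutations that did not keep the lanes). That pair also passed without any 1 of 4 libraries (day 35 meth replicate 8, day 35 saline replicates 10 and 11, day 2 saline replicate 16). Drd2 and Htr2a passed without day 2 meth replicate 2 (r = -0.61). The causes of the sign changes below were not tested.

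Htr1a between the days in meth rats (-0.00055 in the report's fit) was 0.0030 with median-ratio factors, 0.0038 with no filter, 0.00042 with 1 CPM in 4 libraries, 0.0013 with the lane block, 0.0029 with DESeq2, 0.0036 with limma-voom and 0.0029 with only the groups compared. The average meth effect on Drd1 was -0.0064 with the lane block and -0.034 with limma-voom. With limma-voom Drd2 had an average effect of -0.035 and 0.011 between the days in meth rats. The r of Htr2a and Htr2c was 0.00043 with median-ratio factors. In an alternative added after seeing the data, the shallowest library of each day 2 group (meth replicate 1, saline replicate 13) was left out. Drd2 then had -0.47 at day 2, 0.17 for the change of the meth effect, -0.39 on average and 0.43 between the days in meth rats. Drd1 had -0.53 at day 2 (edgeR adjusted p = 0.299), 0.59 for the change of the meth effect (adjusted p = 0.382), -0.23 on average, 0.55 between the days in meth rats (adjusted p = 0.135) and -0.048 in saline rats. Htr2c had -0.24 at day 2 (edgeR adjusted p = 0.315), 0.26 for the change of the meth effect and 0.23 between the days in meth rats. Htr2a had 0.000031 on average, and Htr2c had -0.023 between the days in saline rats. The r of Htr2a became 0.14 with Drd1, 0.0064 with Drd2 and 0.48 with Htr2c.

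Leaving out single libraries moved these values across 0. At day 2 the meth effect spanned -0.40 to 0.10 for Drd1 and -0.31 to 0.62 for Drd2. At day 35 it spanned -0.050 to 0.20 for Drd1, -0.069 to 0.037 for Htr1a and -0.046 to 0.10 for Htr2c. Its change from day 2 to day 35 spanned -0.036 to 0.47 for Drd1, -0.96 to 0.0042 for Drd2 and -0.0074 to 0.14 for Htr1a. The average spanned -0.17 to 0.087 for Drd1, -0.31 to 0.19 for Drd2 and -0.074 to 0.018 for Htr2c. Between the days the values spanned -0.53 to 0.43 for Drd2 and -0.060 to 0.083 for Htr1a in meth rats, and -0.056 to 0.20 for Drd1 and -0.034 to 0.12 for Htr2c in saline rats. The r of Htr2a and Htr2c spanned -0.21 to 0.22.

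The spread between pools was far larger than counting error for Drd1 and Drd2, and their intervals are the widest. For Htr1a, with counts of 161 to 366, counting error was a larger part of the spread.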
